A study of Mus musculus with 6 samples.

Results

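The 40 genes described here encode proteins of mitosis: the kinases and cyclins that start it, condensins, kinetochore and spindle proteins, the spindle checkpoint, the trigger of anaphase, the chromosomal passenger complex and the machinery of cytokinesis. They were chosen by symbol for their known roles, with earlier results of these data known. The study had already described cell cycle genes as lower from these same libraries. All 40 were found among the 24422 genes counted. All 40 were also tested, among 16509 genes with enough counts. In kidneys in which the transferrin receptor TfR1 had been deleted in the nephron lineage, 32 of the 40 were lower than in Control kidneys and 0 were higher.

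The study asked how the growing kidney depends on TfR1, the receptor that brings transferrin-bound iron into cells. RNA from whole kidneys of C57BL/6 mice at postnatal day 13 was sequenced in 6 libraries, 3 from Control kidneys labelled wild type and 3 from TfR1 knockout kidneys, with the genotype label Tfr1f/f;SixCre and the sample name TfR1KO;Six2Cre. All were on an iron-sufficient diet (220 ppm iron). In the knockouts both alleles of Tfrc, the gene of TfR1, carried loxP sites around exons 3 to 4, and the recombinase was Six2CreEGFP, which is active in the progenitors that form the nephron but not in the collecting duct, vessels or stroma. The study's methods describe a neomycin cassette removed by mating to EIIa-Cre mice, and its text describes scattered tubule cells that kept TfR1 because they apparently escaped the recombinase. The series describes the 3 libraries per group as biological replicates and the labels give no litter or batch.

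Mitosis is the step in which a cell divides its copied chromosomes between its daughters. Cyclin-dependent kinase 1 (Cdk1) with B-type cyclins drives entry, condensins and topoisomerase II compact the chromosomes, kinetochores bind them to the spindle, and the spindle checkpoint delays anaphase until every chromosome is attached. The anaphase-promoting complex with Cdc20 then releases separase, and the central spindle and a contractile ring part the daughter cells. Most of these genes are transcribed in a burst late in the cell cycle, so their transcripts mark dividing cells, and in the kidney of a young mouse tubules are still lengthening by division. In RNA from a whole kidney, fewer dividing cells and less of these transcripts in each dividing cell cannot be told apart.

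Total counts ran from 16591156 to 22898008 per library. The whole-gene count of Tfrc overlapped between the groups (5534, 6485 and 3667 normalized counts in the Control libraries, 6976, 4045 and 5898 in the knockout libraries), and reads within the floxed exons were not analysed here, so the count does not check the labels. The kidney markers were present in every library, with Slc12a1, the salt transporter of the thick ascending limb, between 9677 and 36446 normalized counts. Summed marker levels differed between the groups: the 5 markers of the thick ascending limb, all lower, summed to 47986 to 111791 in Control and 13211 to 25497 in knockout libraries, and the 7 macrophage markers, of which 5 were higher, to 2257 to 3556 and 5275 to 7944. The 6 markers of nephron progenitors summed to 2360 to 5416 and 837 to 1282, with Itga8 and Meox1 lower and Eya1 higher, while Six2 itself had at most 7.96 normalized counts in any library. Itga8 made up most of this sum (mean 2795 of 3414 in Control and 708 of 1120 in knockout libraries). The 8 proximal tubule markers, 3 lower and 1 higher, overlapped between the groups (51171 to 113604 and 47135 to 69053), and the 8 collecting duct markers, 2 lower and 2 higher, did not (12851 to 25117 and 36431 to 63913). The latter difference rested on Aqp2, the water channel of principal cells, and without it, an omission chosen after the values were seen, the other 7 overlapped (10442 to 19468 and 13193 to 18626). Control replicate 3 held the lowest summed thick ascending limb, proximal tubule and collecting duct markers of its group and the highest stromal markers (107644 against 50513 and 52611). The part of these differences in the mitosis genes was not tested.

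In DESeq2's test with an adjusted p under 0.05, 32 of the 40 mitosis genes were lower in knockout kidneys, where 7.18% of all 16509 tested genes were lower. Of the 40, 0 were higher, where 7.74% of all genes were, and in edgeR 0 were higher too (3.22% of all genes). At an unadjusted p under 0.05 the count of higher genes was still 0 in both, and 38 of the 40 were lower in both. Over all 16509 genes, DESeq2 had 2227 lower and 2275 higher at that threshold. edgeR had 1984 lower and 1957 higher of the 15290 genes tested by DESeq2 and edgeR. The log2 fold changes (TfR1 knockout over Control) of the 40 had a median of -0.95, against 0.0071 over all tested genes, and ran from -1.51 for Nuf2 to 0.46 for Kif23. The changes of 39 genes were below 0 (49.3% of all genes), and 38 genes were lower in every knockout library than in every Control library (16.9% of all genes). The exceptions to this separation were Plk1 and Kif23. A fall of at least 2-fold was called for 17 of the 40 (4.46% of all genes).

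The test and single libraries moved these counts. edgeR's quasi-likelihood test called 20 of the 40 lower (2.8% of all genes it tested), and all 20 were among DESeq2's 32. Without Control replicate 2 DESeq2 called 21 lower (3.82% of all genes), and without TfR1 knockout replicate 2 the 2-fold count was 7 (3.25% of all genes) instead of 17. It was 11 (3.92% of all genes) without Control replicate 3. In all 6 fits that left out 1 library, 21 genes kept their call as lower. The share of all genes that kept such a call in every fit is not given here.

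**Figure D1:**
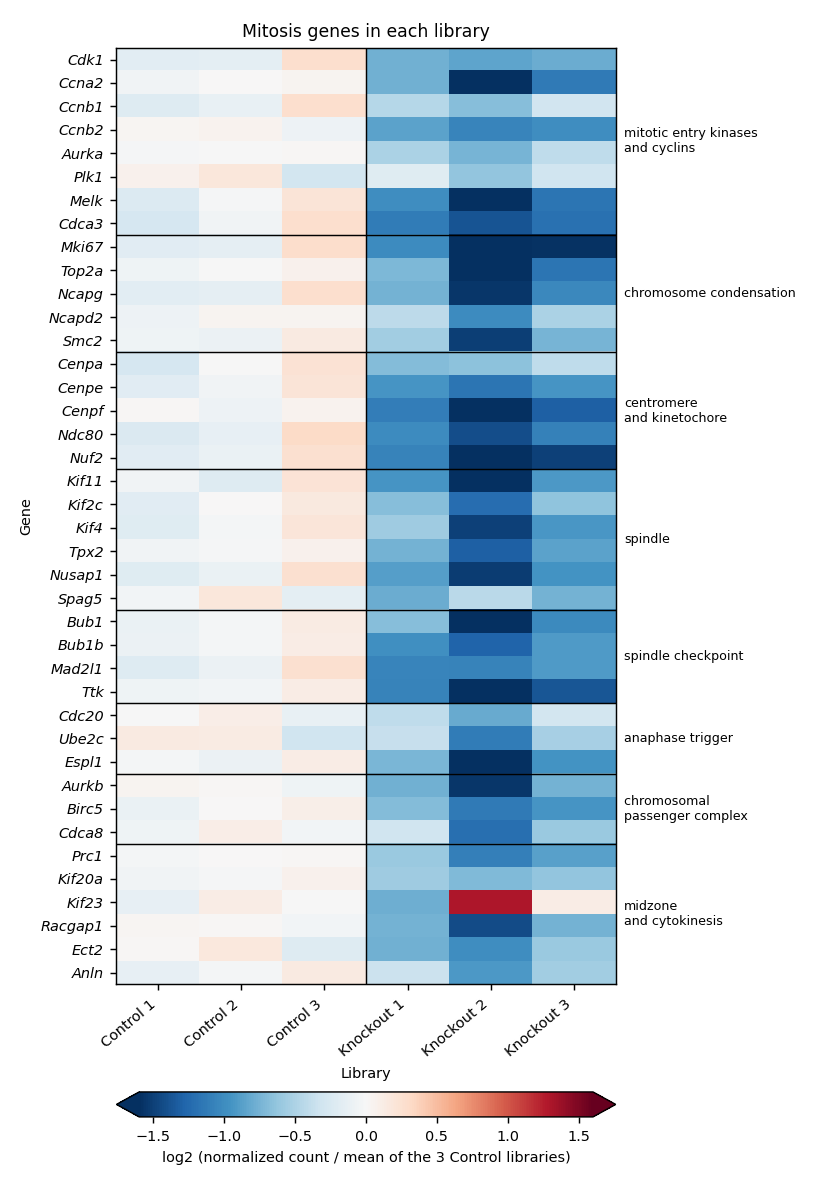
Each tile is the log2 ratio of a gene's normalized count in 1 library to its mean over the 3 Control libraries (colour scale; columns are the 6 libraries, lines of tiles the 40 genes in groups by role). The knockout columns are blue for nearly all genes and darkest in TfR1 knockout replicate 2, where Kif23 alone is strongly red.

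The level of mitosis transcripts in each library was compared as the sum of normalized counts over the 40 genes. In Control kidneys the sums were 25790 for replicate 1, 27087 for replicate 2 and 29832 for replicate 3, and in knockout kidneys 16443, 12369 and 15112 in the same order. The groups did not overlap, and the knockout mean was 53.1% of the Control mean. As a share of all counts the 40 genes took 0.137%, 0.140% and 0.167% in Control and 0.0854%, 0.0553% and 0.0799% in knockout libraries. TfR1 knockout replicate 2 was the lowest of its group for 37 of the 40 genes, whereas it was lowest for 40.2% of all tested genes. The other 3 genes were Kif23, Spag5 and Cenpa. In that library the 10 most abundant genes held 7.03% of all counts, the highest share of the 6, where the others held 3.85% to 5.32%. Among Control libraries, replicate 3 was the highest for 29 of the 40 (43.4% of all tested genes). With both of these libraries left out, an alternative added after the data were seen, 29 of the 40 genes were lower (8.79% of all genes), 4 of them at least 2-fold (3.65% of all genes), and the median log2 fold change was -0.77.

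**Figure D2:**
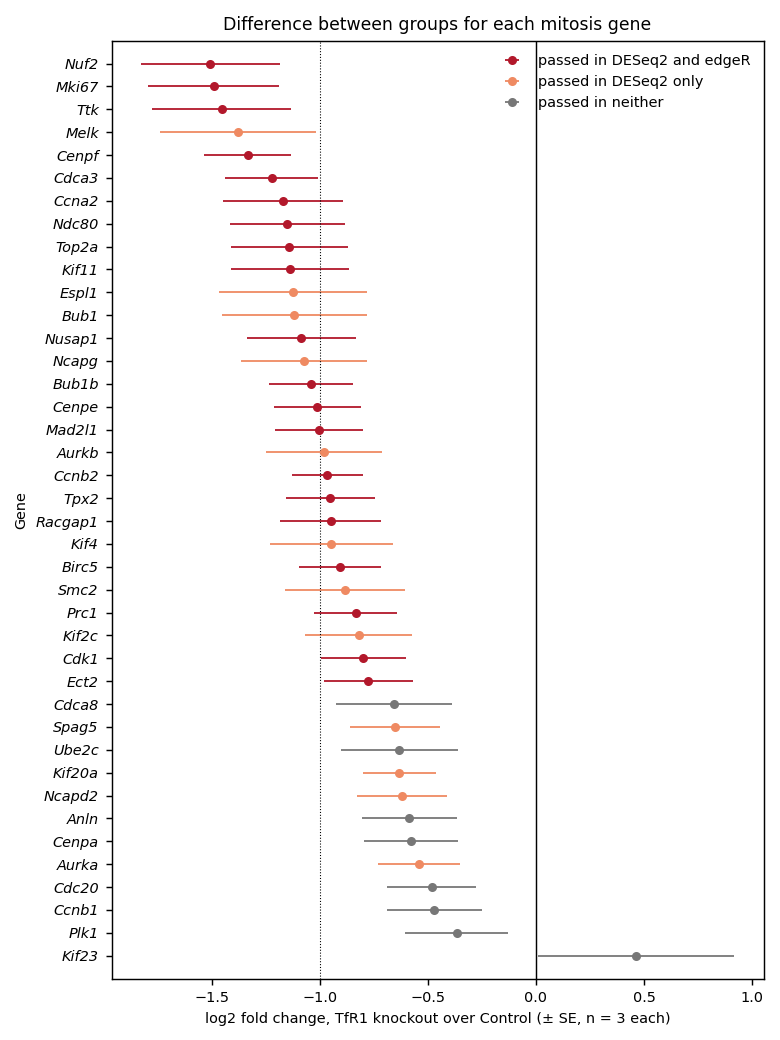
The log2 fold change of each of the 40 genes is shown with its standard error (3 libraries per group), the dotted line marks a 2-fold fall, and colours give the test that each gene passed. From Nuf2 at -1.51 to Plk1 at -0.37 all 39 points lie left of 0, and only Kif23 lies right of it.

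Promoters of the genes were searched for 3 short motifs, because genes of mitosis are known to carry a cell cycle homology region (CHR) near the start site, bound by complexes that hold the MuvB proteins, together with CCAAT boxes bound by NF-Y. RefSeq promoters of the GRCm38.p6 build, 250 bases before to 50 after the annotated start, were held for 36 of the 40 genes (38 promoters), and Ccna2, Tpx2, Aurkb and Kif20a had none in the table used. A CHR, searched as TTTGAA or TTCGAA on both strands, stood in 31 of the 38 (81.6%) and in 19.2% of all 32851 promoters of the same length. A CCAAT word on either strand stood in 78.9% and in 37.4%, and both in 73.7% and in 7.52%. Sites of the E2F factors, searched on both strands as the word TTTCCCG or the word TTTGGCG or the word TTTCGCG or the word TTTGCCG, stood in 7 of the 38 (18.4%) and in 6.7% of all promoters. These are matches of letters in a window and not sites shown to be used. Words that overlapped in part were counted separately, as in Ube2c, where CCAAT words began 186 and 183 bases before the start. TTCGAA, which reads the same on both strands, was counted once.

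The promoters of 6 genes with a CHR and the lowest adjusted p among those with values per library are printed 5′ to 3′ in the direction of the gene, to show how the words lie. Capitals of 6 letters mark each CHR and capitals of 5 letters each CCAAT box, and a word on the opposite strand is marked where its complement stands. The windows are chr1:189688037-189688336, minus strand for Cenpf, chr9:70421505-70421804, minus strand for Ccnb2, chr2:118597961-118598260, plus strand for Bub1b, chr7:135716330-135716629, minus strand for Mki67, chr7:80294201-80294500, plus strand for Prc1 and chr11:99024140-99024439, minus strand for Top2a, all in GRCm38.p6.
Cenpf: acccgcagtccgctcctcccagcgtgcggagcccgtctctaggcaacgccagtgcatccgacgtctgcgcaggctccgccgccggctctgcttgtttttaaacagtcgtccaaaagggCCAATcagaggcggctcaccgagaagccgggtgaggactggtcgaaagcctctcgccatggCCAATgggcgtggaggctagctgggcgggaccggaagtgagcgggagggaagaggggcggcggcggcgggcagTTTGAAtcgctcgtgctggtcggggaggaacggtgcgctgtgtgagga
Ccnb2: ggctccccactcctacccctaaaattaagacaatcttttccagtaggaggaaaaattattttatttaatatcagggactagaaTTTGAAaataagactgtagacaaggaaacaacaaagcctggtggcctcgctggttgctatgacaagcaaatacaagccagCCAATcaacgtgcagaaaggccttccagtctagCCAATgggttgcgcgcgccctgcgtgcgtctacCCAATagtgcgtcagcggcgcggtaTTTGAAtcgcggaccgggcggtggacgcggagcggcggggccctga
Bub1b: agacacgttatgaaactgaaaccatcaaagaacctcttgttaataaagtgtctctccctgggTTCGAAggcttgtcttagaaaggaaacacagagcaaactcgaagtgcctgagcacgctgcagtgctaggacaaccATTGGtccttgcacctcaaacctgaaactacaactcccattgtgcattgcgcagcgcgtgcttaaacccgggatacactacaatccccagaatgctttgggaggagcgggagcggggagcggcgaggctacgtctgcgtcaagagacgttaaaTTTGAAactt
Mki67: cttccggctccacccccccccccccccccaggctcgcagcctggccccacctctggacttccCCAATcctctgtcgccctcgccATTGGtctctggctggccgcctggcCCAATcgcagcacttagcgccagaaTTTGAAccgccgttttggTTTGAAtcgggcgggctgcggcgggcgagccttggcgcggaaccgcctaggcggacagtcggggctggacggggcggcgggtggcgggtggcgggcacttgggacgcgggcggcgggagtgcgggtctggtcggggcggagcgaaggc
Prc1: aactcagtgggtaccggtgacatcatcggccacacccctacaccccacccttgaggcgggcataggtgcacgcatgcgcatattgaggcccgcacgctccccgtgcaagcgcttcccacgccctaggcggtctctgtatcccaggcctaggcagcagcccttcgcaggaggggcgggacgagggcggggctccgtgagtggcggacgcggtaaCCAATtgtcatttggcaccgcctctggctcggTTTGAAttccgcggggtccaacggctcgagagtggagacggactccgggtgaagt
Top2a: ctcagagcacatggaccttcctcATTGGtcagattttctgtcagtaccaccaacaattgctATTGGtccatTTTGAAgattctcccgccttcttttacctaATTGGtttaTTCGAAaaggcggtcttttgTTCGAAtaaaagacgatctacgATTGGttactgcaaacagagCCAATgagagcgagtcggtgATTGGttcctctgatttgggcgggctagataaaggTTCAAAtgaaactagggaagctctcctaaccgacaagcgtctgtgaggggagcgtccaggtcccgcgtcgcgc
Counted from the annotated start as base 1, the CHR of Cenpf began at base 3, and those of Ccnb2 began 167 bases before the start and at base 5. The CHR of Prc1 began 5 bases before the start, and Mki67 held a pair, 116 and 98 bases before it. Top2a held 4 CHR words and 6 CCAAT words, the most of the 6 printed. By change, 22 of the 29 genes with a CHR were lower in knockout kidneys (median log2 fold change -0.88), and so were 6 of the 7 without one (median -1.01). Over all tested genes 7.18% were lower. Plk1, Cdc20, Kif23, Anln, Cenpa, Cdca8 and Ube2c, which did not pass the test, each held a CHR in the window. The CCAAT boxes of Ccnb1, which did not pass either, stood without one.

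The 8 kinases and cyclins of mitotic entry comprised Cdk1 and its cyclins Ccna2, Ccnb1 and Ccnb2, the kinases Aurka, Plk1 and Melk, and Cdca3. Of the 8, 6 were lower, 3 of them at least 2-fold, and edgeR called 4. The median log2 fold change of the 8 was -0.88. Over all genes 7.18% were lower, 4.46% at least 2-fold, and edgeR called 2.8% lower. These shares also stand beside the counts of each other role below. Ccnb2 (cyclin B2; chromosome 9, 70255496 to 70269361 in the mm9 build) had the lowest adjusted p of the 8. Control libraries held 678, 686 and 624 normalized counts of it, in the order of replicates 1 to 3, and knockout libraries 367, 319 and 332. Each group was tight and the gap between them was wider than either, and cyclin B2 fell from 663 ± 33.6 to 339 ± 25.0 (mean ± SD, n = 3 each; log2 fold change -0.97, SE 0.16, adjusted p 2.54e-07; edgeR adjusted p 0.0132). Per kilobase of exon sequence Ccnb2 was the most abundant of the 40 genes in Control kidneys, at 430.1 normalized counts per kilobase, and stood at 220.1 in knockout kidneys.

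Cdk1 (chromosome 10, 68799383 to 68815686), the kinase that cyclins A and B activate, had 788, 796 and 1067 normalized counts in Control libraries and 519, 494 and 509.9 in knockout libraries. The knockout values were nearly equal, and all lay below the lowest Control value. Cdk1 fell (log2 fold change -0.80, SE 0.20, adjusted p 0.000914; edgeR adjusted p 0.0345). Ccna2 and Cdca3 fell by more than 2-fold, with log2 fold changes of -1.17 and -1.22, and both passed edgeR's test. Melk had -1.38 and Aurka -0.54, and edgeR called neither, whereas limma-voom called Melk (adjusted p 0.0483) and not Aurka. The call of Aurka was lost whichever of the 6 libraries was left out.

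Ccnb1 and Plk1 were the 2 genes of this group that did not pass. Cyclin B1 (chromosome 13, 101548605 to 101556525), the main partner of Cdk1 at entry, had 496, 525 and 689 normalized counts in Control and 414, 357 and 461 in knockout libraries. All knockout values were lower than all Control values, but the gap from 461 to 496 was smaller than the spread within either group (log2 fold change -0.47, SE 0.22, adjusted p 0.138). Plk1 (chromosome 7, 129302951 to 129313389), polo-like kinase, had 328, 355 and 254 in Control and 273, 202 and 251 in knockout libraries. Here the groups overlapped, since Control replicate 3 was below knockout replicate 1 (log2 fold change -0.37, SE 0.24, adjusted p 0.321).

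Ratios within 3 pairs of related genes were compared, since scaling of a library cancels in them. Ccnb1 over Ccnb2, the B-type cyclins, in normalized counts, was 0.867 ± 0.206 in Control and 1.21 ± 0.152 in knockout libraries (mean ± SD, n = 3 each). The knockout ratios all lay above the Control ratios, the nearest being 1.10 in Control replicate 3 and 1.12 in knockout replicate 2, and the exact two-sided permutation p was 0.1, the smallest that 3 against 3 allows (0.15 adjusted over the 3 pairs compared). Aurka over Aurkb, the kinases of the spindle poles and of the passenger complex, was 0.990 ± 0.0523 in Control and 1.40 ± 0.294 in knockout libraries, without overlap, with the same exact permutation p of 0.1 (adjusted 0.15). Bub1 over Bub1b was 0.595 ± 0.00475 and 0.552 ± 0.177, and these overlapped (exact permutation p 0.7).

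**Figure D3:**
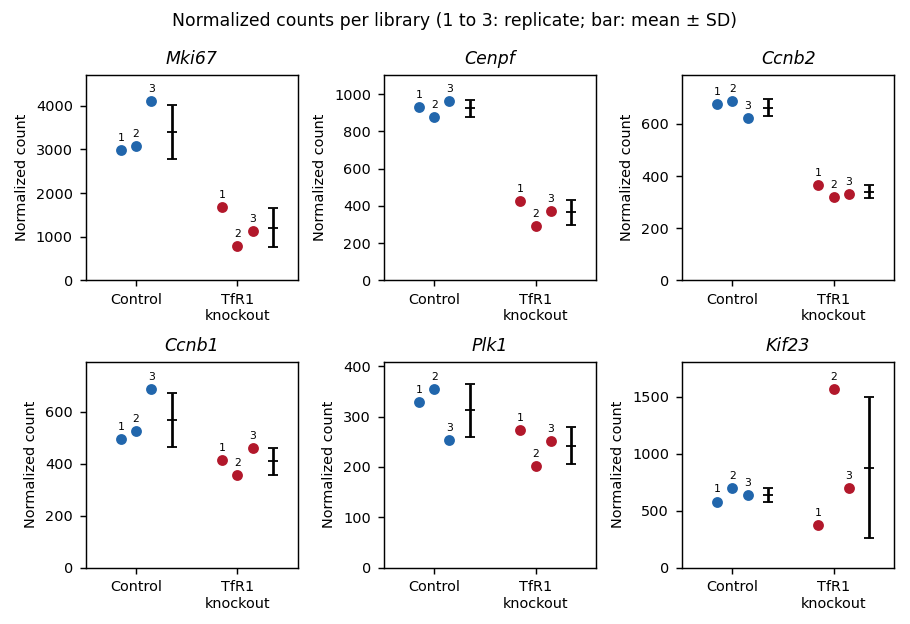
Normalized counts of 6 genes in each library (points numbered by replicate; bars give mean ± SD, n = 3 per group; each panel has its own axis from 0). Mki67, Cenpf and Ccnb2 separate the groups widely, Ccnb1 narrowly and Plk1 not at all, and Kif23 is at 1572 in TfR1 knockout replicate 2 alone.

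All 5 genes of chromosome condensation fell, 3 of them at least 2-fold, with a median log2 fold change of -1.07, and edgeR called 2. Mki67 (chromosome 7, 142881471 to 142908062) encodes Ki-67, a protein that coats mitotic chromosomes and is widely used to stain dividing cells. Its normalized counts were 2986, 3079 and 4101 in Control and 1682, 795 and 1136 in knockout libraries. The highest knockout value was well below the lowest Control value, although the knockout values were themselves widely spread. Mki67 fell from 3389 ± 619 to 1204 ± 447 (log2 fold change -1.49, SE 0.30, adjusted p 2.95e-05; edgeR adjusted p 0.029). Without TfR1 knockout replicate 2 its log2 fold change was -1.26.

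Top2a (chromosome 11, 98854257 to 98885503), the topoisomerase that untangles sister chromatids, had 2151, 2235 and 2370.2 normalized counts in Control and 1372, 687 and 999 in knockout libraries. The Control values were close together and the knockout values, all lower, were spread out (log2 fold change -1.14, SE 0.27, adjusted p 0.000527; edgeR adjusted p 0.0384). Ncapd2 (chromosome 6, 125118027 to 125141613), a subunit of condensin I, had 1211, 1324 and 1321 in Control and 961, 642 and 904 in knockout libraries. The groups were separate and the fall was the smallest of the 5 (log2 fold change -0.62, SE 0.21, adjusted p 0.0258), and edgeR did not pass it (adjusted p 0.0795). The condensin subunits Ncapg and Smc2 fell with log2 fold changes of -1.07 and -0.88, in DESeq2 only. Leaving out any of 4 single libraries, among them each Control library, ended the calls of Ncapd2 and Smc2. The exon sequence of Ncapg is shared in part with Lcorl, whose values differed by 0.36 (adjusted p 0.270, not passed).

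At the centromere and kinetochore, 4 of 5 genes fell, all 4 at least 2-fold and all 4 also in edgeR, and the median log2 fold change of -1.15 was the lowest of the 8 roles. Cenpf (chromosome 1, 191464478 to 191511965), a large protein of the outer kinetochore, had 933, 875 and 961 normalized counts in Control and 428, 294 and 374 in knockout libraries. Every knockout value was under every Control value by a margin many times the spread within Control. Cenpf fell from 923 ± 43.7 to 365 ± 67.1, with the lowest adjusted p of the 40 genes in both tests (log2 fold change -1.34, SE 0.20, adjusted p 2.98e-09; edgeR adjusted p 0.00917). The log2 fold changes were -1.51 for Nuf2 and -1.15 for Ndc80, which are partners in the complex that grips microtubule ends, and -1.01 for the kinetochore motor Cenpe.

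Cenpa (chromosome 5, 30969150 to 30977200) encodes the histone H3 variant that marks centromeres. It had 429.6, 516 and 610.3 normalized counts in Control and 320.2, 330.1 and 392 in knockout libraries. The groups did not overlap, but the Control values were as far from each other as from the knockout values, and the adjusted p of 0.0525 was just over the threshold (log2 fold change -0.58, SE 0.22).

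All 6 spindle genes fell, 2 of them at least 2-fold, with a median log2 fold change of -0.95, and edgeR called 3. Tpx2 (chromosome 2, 152673700 to 152721057), which activates Aurora A on the spindle, had 825, 843 and 899 normalized counts in Control and 506, 347 and 471 in knockout libraries. All knockout values were far below the Control range, which was narrow (log2 fold change -0.95, SE 0.21, adjusted p 0.000104; edgeR adjusted p 0.0266). The motor Kif11, which keeps the spindle bipolar, and Nusap1, which bundles microtubules, fell with log2 fold changes of -1.14 and -1.09 in both tests. Kif2c, a microtubule depolymerase, and the chromosome-bound motor Kif4 had -0.82 and -0.95 and passed in DESeq2 only.

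Spag5 (chromosome 11, 78115031 to 78135959), astrin, which holds the spindle poles together, had 451, 525 and 418 in Control and 268, 345 and 276 in knockout libraries. The groups were separate, and TfR1 knockout replicate 2 was here the highest of its group. The fall was the smallest of the 6 (log2 fold change -0.65, SE 0.21, adjusted p 0.0169), edgeR did not pass it (adjusted p 0.0701), and leaving out any of 4 single libraries ended the call. Nusap1 shares exon sequence with Oip5, which fell (log2 fold change -0.88, adjusted p 0.0237), and Kif4 with Pdzd11, which fell too (-0.95, adjusted p 0.00387). In all, 8 of the 40 share exon sequence with another counted gene. The strand setting of the counting is not given in the sources used here, so reads of such overlapping pairs may not be told apart.

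All 4 genes of the spindle checkpoint fell at least 2-fold, with a median log2 fold change of -1.08, and edgeR called 3. Bub1b (chromosome 2, 118423947 to 118467328), BubR1, the checkpoint protein that holds back Cdc20, had 479, 503 and 555 normalized counts in Control and 261, 211 and 273 in knockout libraries. The groups were tight and far apart (log2 fold change -1.04, SE 0.20, adjusted p 4.57e-06; edgeR adjusted p 0.0194). Mad2l1 (chromosome 6, 66485384 to 66491027), Mad2, had 607, 656 and 837 in Control and 336, 335 and 374 in knockout libraries. The knockout values were close to each other and the Control values were spread by replicate 3, with no overlap (log2 fold change -1.01, SE 0.20, adjusted p 2.79e-05; edgeR adjusted p 0.0204).

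Bub1 (chromosome 2, 127626858 to 127657601), the kinase that recruits the checkpoint to kinetochores, had 284, 298 and 334 in Control and 189.9, 79.3 and 150.4 in knockout libraries. Every knockout value was lower, and TfR1 knockout replicate 2 was lower than the other knockout libraries by a wide margin (log2 fold change -1.12, SE 0.34, adjusted p 0.00966). edgeR did not pass Bub1 (adjusted p 0.0839), the call was lost without any 1 of the Control libraries, and without TfR1 knockout replicate 2 the log2 fold change was -0.84. The kinase Ttk, Mps1, which starts checkpoint signalling, fell with a log2 fold change of -1.46 in both tests and was the least abundant of the 40 in Control kidneys by normalized count (213 ± 15.5).

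Of the 3 genes that trigger anaphase, 1 passed. Espl1 (chromosome 15, 102126724 to 102154787), separase, the protease that cuts cohesin, had 288, 274 and 318 normalized counts in Control and 177, 72.9 and 151 in knockout libraries. The knockout values were all lower and widely spread, and Espl1 fell (log2 fold change -1.13, SE 0.34, adjusted p 0.0111) in DESeq2 but not in edgeR (adjusted p 0.0876). Its call was also lost without any 1 of the Control libraries.

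Cdc20 (chromosome 4, 118105506 to 118109957), the activator of the anaphase-promoting complex, had 664, 717 and 612 in Control and 500.2, 381 and 544 in knockout libraries. The groups were separate, yet the adjusted p missed the threshold (log2 fold change -0.48, SE 0.21, adjusted p 0.0974). Cdc20 shares exon sequence with Elovl1, which was higher in knockout kidneys (log2 fold change 0.47, adjusted p 0.0353). Ube2c, the ubiquitin-conjugating enzyme of the same complex, did not pass with all libraries (log2 fold change -0.63, SE 0.27, adjusted p 0.0969), and it passed without Control replicate 3 (adjusted p 0.0454) or without TfR1 knockout replicate 1 (adjusted p 0.0421).

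In the chromosomal passenger complex, which corrects faulty attachments, 2 of 3 genes fell, neither by as much as 2-fold. The median log2 fold change was -0.91, and edgeR called 1. Birc5 (chromosome 11, 117710565 to 117717069), survivin, had 687, 744 and 788 normalized counts in Control and 457, 338 and 386 in knockout libraries. The groups lay well apart (log2 fold change -0.91, SE 0.19, adjusted p 7.18e-05; edgeR adjusted p 0.0249). Cdca8 (chromosome 4, 124595709 to 124616555), borealin, had 378, 428 and 384 in Control and 318, 173 and 263 in knockout libraries. Its groups did not overlap, but knockout replicate 1 lay about midway between the Control libraries and the other knockout libraries, and the test did not pass (log2 fold change -0.66, SE 0.27, adjusted p 0.0808). The kinase Aurkb had a log2 fold change of -0.98 and was lower in DESeq2 only. Without TfR1 knockout replicate 1 Cdca8 passed (adjusted p 0.0142).

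Of the 6 genes of the spindle midzone and cytokinesis, 4 fell, each by less than 2-fold, and edgeR called 3. The median log2 fold change of -0.70 was closer to 0 than in all other roles except the anaphase trigger (-0.63). Prc1 (chromosome 7, 87439336 to 87461145), which bundles the microtubules of the midzone, had 868, 898 and 906 normalized counts in Control and 589.7, 418 and 488 in knockout libraries. The Control values were within a narrow range that the knockout values did not reach (log2 fold change -0.84, SE 0.19, adjusted p 0.00032; edgeR adjusted p 0.0305). Ect2, which activates RhoA at the cleavage site, fell with a log2 fold change of -0.78 in both tests, and the midzone motor Kif20a with -0.63 in DESeq2 only. Anillin (Anln), a scaffold of the contractile ring, did not pass (log2 fold change -0.59, SE 0.22, adjusted p 0.0509).

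Kif23 and Racgap1 encode the 2 subunits of centralspindlin, the complex that organises the midzone, and their transcripts differed. Racgap1 had 829, 821 and 785 normalized counts in Control and 478, 301 and 479 in knockout libraries. Like most of the 40 genes it fell, with the lowest value in knockout replicate 2 (log2 fold change -0.95, SE 0.23, adjusted p 0.000981; edgeR adjusted p 0.0397). Kif23 (chromosome 9, 61765087 to 61794606) had 581, 696 and 638 in Control and 371, 1572 and 696 in knockout libraries. Knockout replicate 1 was below the Control range, replicate 3 was at its top and replicate 2 was more than 2-fold above it. The log2 fold change was 0.46 (SE 0.45, adjusted p 0.548) and -0.25 without TfR1 knockout replicate 2 (adjusted p 0.715). The value in replicate 2 rested on 1229 deposited counts, the largest raw count of Kif23 in any library, and no other counted gene shares its exon sequence in the annotation used. With Kif23 left out, the summed counts of the other genes in knockout libraries were 51.1% of Control.

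The genes were also grouped by the phase of mitosis in which their proteins act, with the chromosomal passenger complex placed under anaphase and cytokinesis. The groups describe protein roles, and transcript levels in whole kidney do not give the phase that cells are in. Of 13 genes of entry and condensation, 11 were lower (6 at least 2-fold), with a median log2 fold change of -0.97. Of 15 genes of prometaphase and metaphase, from kinetochore to checkpoint, 14 were lower (10 at least 2-fold), with a median of -1.04. Among the 12 genes of anaphase and cytokinesis 7 were lower (1 at least 2-fold), with a median of -0.72. Over all tested genes 7.18% were lower, and 4.46% at least 2-fold. The summed counts in knockout libraries were 48.6% of Control for entry, 48.9% for prometaphase and metaphase, and 66.2% for anaphase and cytokinesis. Without Kif23 the last share was 58.9%. The difference between the phases was not tested, since the genes of a phase are not replicates of it. Without TfR1 knockout replicate 2 the 3 medians were -0.88, -0.93 and -0.64.

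A further 78 genes with known roles in mitosis were counted beside the 40. Of these, 35 were lower and 2 higher (7.18% and 7.74% of all genes), and edgeR called 13 lower and 1 higher (2.8% and 3.22%). Their median log2 fold change was -0.69, and 69 of the 78 were below 0 (49.3% of all genes). Without Control replicate 2, 19 were lower (3.82% of all genes), and 20 were lower without Control replicate 1 (3.59%) and without TfR1 knockout replicate 3 (4.12%). The 4 with the lowest adjusted p were Aspm, Casc5, Fam64a and Cenpp. Aspm, a spindle pole protein, had 384, 396 and 464 normalized counts in Control and 174, 223 and 179 in knockout libraries (log2 fold change -1.12, SE 0.21, adjusted p 4.5e-06). Its knockout values were all less than the lowest Control value. Casc5, a kinetochore scaffold, had 220.1, 170.0 and 212 in Control and 89.5, 80.6 and 88.9 in knockout libraries (log2 fold change -1.21). Fam64a had 186, 193 and 313 in Control and 72.6, 30.7 and 66.2 in knockout libraries (log2 fold change -2.02), lowest in knockout replicate 2. The centromere protein Cenpp had 128, 98.2 and 151 in Control and 48.7, 39.7 and 40.7 in knockout libraries (log2 fold change -1.54). Neither Casc5, Fam64a nor Cenpp overlapped between the groups, and all 4 genes passed in edgeR.

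The 2 genes that rose were Cdc25b and Gtse1. Cdc25b, a phosphatase that removes the inhibitory mark from Cdk1, had 758, 752 and 689 normalized counts in Control and 1015, 1293 and 1405 in knockout libraries. All knockout values exceeded all Control values, and Cdc25b rose in both tests (log2 fold change 0.76, SE 0.19, adjusted p 0.0013; edgeR adjusted p 0.0359). Gtse1, a microtubule-binding protein that restrains p53, had 158, 155 and 141 in Control and 248, 209.8 and 252 in knockout libraries. It too was separate between the groups, and it rose in DESeq2 (log2 fold change 0.64, SE 0.21, adjusted p 0.0188) but not in edgeR (adjusted p 0.102).

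Of 22 regulators of mitotic transcription, which comprise Foxm1, the B-Myb and MuvB proteins, E2F and retinoblastoma family members, p53 and p21, 5 were lower and 1 higher in DESeq2 (7.18% and 7.74% of all genes). edgeR called 0 lower and 1 higher (2.8% and 3.22% of all genes). At an unadjusted p under 0.05 edgeR had 7 lower, against 1984 of the 15290 genes tested by DESeq2 and edgeR. limma-voom called 1 of the 22 lower (2.98% of all genes). The median log2 fold change of the 22 was -0.12. Foxm1, the activator of late cell cycle genes, had 527, 589 and 526 normalized counts in Control and 316, 159.9 and 279 in knockout libraries. The groups were separate, and Foxm1 fell (log2 fold change -1.12, SE 0.28, adjusted p 0.00152), with an edgeR adjusted p of 0.0505 and a limma-voom adjusted p of 0.0385. The other 4 lower genes were E2f2, an activating E2F, E2f7 and E2f8, the atypical repressor E2Fs, and Rbbp4, a MuvB subunit that also serves other chromatin complexes. E2f2 had 279.5, 295 and 364 normalized counts in Control and 166, 145 and 235 in knockout libraries (log2 fold change -0.78). E2f7 had 132, 155 and 188 in Control and 86.5, 57.6 and 84.2 in knockout libraries (log2 fold change -1.05). E2f8 had 172, 153 and 174 in Control and 109, 34.5 and 80.4 in knockout libraries (log2 fold change -1.14). Of these, E2f8 was the most uneven among the knockout libraries, with replicate 2 far below the others. Rbbp4 had 4768, 4992 and 4968 in Control and 3902, 3967 and 3607 in knockout libraries (log2 fold change -0.36), the smallest fold change of the called regulators. None of the 4 overlapped between the groups, and neither edgeR nor limma-voom called them. Mybl2, B-Myb, had 153, 171 and 219 in Control and 134, 114 and 112 in knockout libraries, without overlap, and did not pass (log2 fold change -0.59, SE 0.26, adjusted p 0.106). E2f1 had 421, 434 and 354 in Control and 340.1, 80.6 and 226 in knockout libraries, with knockout replicate 2 far below the rest, and did not pass (log2 fold change -0.90, SE 0.45, adjusted p 0.173). The gene that rose was Cdkn1a, p21, an inhibitor of cyclin-dependent kinases, with 889.7, 771 and 675 normalized counts in Control and 5857, 10064 and 5925 in knockout libraries. All knockout values were several times the highest Control value (log2 fold change 3.23, SE 0.27, adjusted p 6.61e-30). Among the knockout libraries Cdkn1a was highest in replicate 2, which was the highest for 40.1% of all tested genes. A relation of Cdkn1a to the mitosis genes was not tested.

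Genes of DNA replication, which precedes mitosis in the cell cycle, were counted beside the 40. Of 32 such genes, 11 were lower and 0 higher in DESeq2 (7.18% and 7.74% of all genes), where all 32 log2 fold changes were below 0 (49.3% of all genes) with a median of -0.66. edgeR called 0 of them lower (2.8% of all genes). At an unadjusted p under 0.05 edgeR had 22 lower, against 1984 of the 15290 genes tested by DESeq2 and edgeR. limma-voom called 1 (2.98% of all genes), the primase subunit Prim1, named here after its values were seen (log2 fold change -1.27). The summed counts in knockout libraries were 60.5% of Control for the replication genes, against 53.1% for the 40 mitosis genes and 76.4% for the further mitosis genes.

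**Figure D4:**
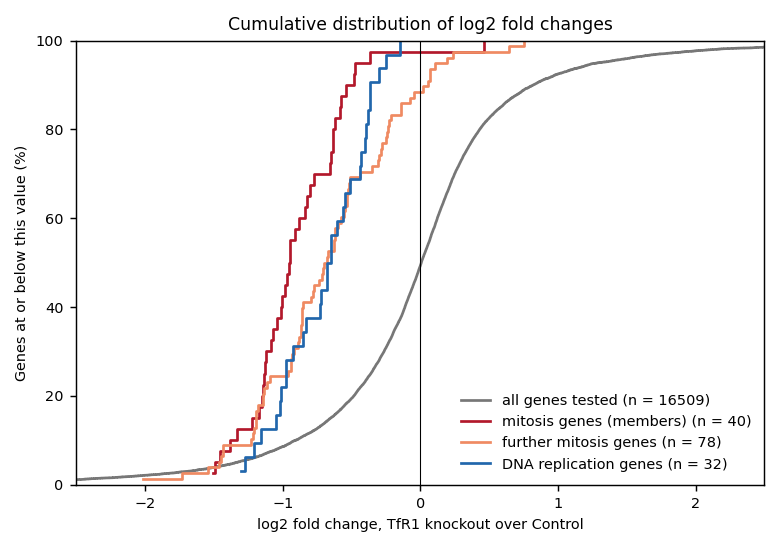
Share of genes (%) at or below each log2 fold change (TfR1 knockout over Control), for all 16509 tested genes and 3 gene lists. The curve of the 40 mitosis genes, with its median at -0.95, lies left of those of 78 further mitosis genes (-0.69) and 32 DNA replication genes (-0.66) over most of its length, and the medians of all 3 lie left of that of all genes (0.0071).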

How the data were processed

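Poly-A RNA of 6 mouse kidney libraries was measured by RNA-seq. Per the labels and methods, the authors trimmed the reads (Trimmomatic), aligned them to mm9 with TopHat2 2.0.11 and counted them per gene with HTSeq, and deposited raw counts with no normalization. Their annotation and strand setting are not given in the sources used here. The deposited counts were tested as they stand.

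Groups and replicate numbers came from the sample names. TfR1 knockout was compared with Control by DESeq2 1.42.0 in R 4.3.3 (Wald test, median-ratio size factors, no covariate, Benjamini-Hochberg adjustment over all tested genes, independent filtering tuned at 0.05), which is the tool the study names. Genes with a mean under 3.51 normalized counts, and 29 genes set aside by outlier filtering, had no adjusted p. A gene was called lower or higher at an adjusted p under 0.05, and at 2-fold with a log2 fold change of at least 1 in size. Unless edgeR or limma-voom is named, an adjusted p is that of DESeq2. Normalized counts are counts divided by the size factor. The p-values measure the spread between these 3 libraries per group.

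The alternatives were edgeR 4.0.16 (quasi-likelihood, TMM), limma 3.58.1 with voom, TMM and total-count scaling, a filter of at least 10 counts in 3 libraries, no independent or outlier filtering, a fit blocked on replicate number, and fits without 1 library each. Leaving out Control replicate 3 with TfR1 knockout replicate 2, and edgeR with the block, were added after the data were seen. The tests were run on simulated data whose set changes were larger than those of nearly all of the mitosis genes. That run does not show how often changes of the sizes reported here are called.

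The 40 members, their 8 roles and 3 phases, the other gene lists and the motifs were chosen with earlier results of these data known. The study described cell cycle genes as lower from these same libraries, so the direction of the list is not independent evidence. Values per library are given for the member with the lowest adjusted p, the highest mean and the highest adjusted p in each role, and for Mki67, Top2a, Cdk1, Ccnb1 and Plk1; of the further mitosis genes for the 4 lowest adjusted p and those called higher, and of the regulators for those called and Foxm1, Mybl2 and E2f1. Racgap1 was added after its values were seen, as the partner of Kif23. Positions and exon lengths are those of the GENCODE annotation of mm9 (NCBIM37), and promoters those of RefSeq in GRCm38.p6. The 2 builds were not mixed.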

Additional observations from a re-analysis of the deposited data

How the results depend on the processing

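The direction of each of the 40 mitosis genes except Kif23 held under the alternatives run. The number called depended on the test and on single libraries. With 1 library left out at a time, the median log2 fold change lay between -1.05 and -0.79. Of the 40, edgeR called 20 lower (2.8% of all genes) and limma-voom 21 (2.98%), against 32 in DESeq2 (7.18%). Single omissions gave 21 without Control replicate 2 (3.82% of all genes) to 33 without TfR1 knockout replicate 1 (10.5%). The 2-fold count of 17 (4.46% of all genes) fell to 7 without TfR1 knockout replicate 2 (3.25%). It rose to 23 without TfR1 knockout replicate 1 (7.16%), and was 11 without Control replicate 3 (3.92%). It was 4 without Control replicate 3 and TfR1 knockout replicate 2 together (3.65%). Of the further mitosis genes, edgeR called 13 lower and limma-voom 14, against 35 in DESeq2. Single omissions gave 19 without Control replicate 2 (3.82% of all genes) to 43 without TfR1 knockout replicate 1 (10.5%). The count was 20 without Control replicate 1 (3.59%) and 20 without TfR1 knockout replicate 3 (4.12%). Without Control replicate 3 and TfR1 knockout replicate 2 it was 21 (8.79%). The cause of these differences was not tested. Kif23 changed sign, with single omissions giving values from -0.25, where TfR1 knockout replicate 2 was left out, up to 0.83, where replicate 1 of that group was, and it was at -0.26 without Control replicate 3 and TfR1 knockout replicate 2. Scaling and filtering moved no call among the 40 except to add Cenpa and Anln: both passed with TMM scaling or the count filter, and Cenpa with total-count scaling.

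With the replicate block 29 of the 40 were lower in DESeq2 (Aurka, Spag5 and Kif20a lost their calls) and 21 in edgeR. Of the further mitosis genes 28 were lower in DESeq2 and 15 in edgeR. Over all genes, 6.73% were lower in DESeq2 with the block and 3.95% in edgeR with it. The deviations of same-numbered libraries correlated by 0.0148, 0.0663 and 0.155 across genes, and libraries with the same number were therefore not treated as pairs. Counting error is small for these genes, the lowest raw count of any member being 37, and 3 libraries per group limit the precision.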
